A study of Mus musculus with 2 samples.

Results

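The 10 genes *Drosha*, *Dgcr8*, *Xpo5*, *Dicer1*, *Tarbp2*, *Ago1*, *Ago2*, *Ago3*, *Tnrc6a* and *Tnrc6b* of the microRNA pathway were read from RNA-Seq of neonatal *Mir125b-2* m-/p+ and wild-type mouse brains. They were chosen by name, as the enzymes and effectors that make and use microRNAs, and make up 10 of the 51905 genes and 60 of the 128603 transcripts listed. The m-/p+ group (maternal KO) lacks the maternal copy of *Mir125b-2* and keeps the paternal one. The other group is wild type (m+/p+). Both are C57BL/6 mice (C57BL/6J in the study's methods) at postnatal day 0, and each genotype was sequenced as 1 library from the RNA of 6 animals mixed in equal amounts. There is therefore no spread between animals, no test could be run, and every value below compares these 2 libraries only. The sample records name whole brain as the tissue, while their protocol text speaks of the hippocampus, and all 13 marker genes of regions outside the hippocampus had a mean of at least 1 FPKM (fragments scaled to transcript length and to the fragments mapped in the library). Values are FPKM per transcript, and gene values are the sum over a gene's transcripts. The number of reads in each library is not known here. In pooled tissue, fewer cells of a type and less RNA per cell cannot be told apart.

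A microRNA is made in steps. In the nucleus DROSHA, held by its partner DGCR8, crops a hairpin out of a long primary transcript, and exportin 5, the product of *Xpo5*, carries the hairpin to the cytoplasm. There DICER1, with the RNA-binding protein TARBP2, cuts the hairpin into a short duplex, and 1 strand is kept by an Argonaute protein (AGO1, AGO2 or AGO3), which pairs with messenger RNAs mainly through the seed near the 5′ end of the microRNA. The GW182 proteins TNRC6A and TNRC6B bind Argonaute and bring in the enzymes that shorten the poly(A) tail and repress translation.

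The microRNAs of the deleted gene are shown because the mutation removes 1 copy of them, and because the other microRNA-125 genes still carry the same seed. In each, the seed (bases 2 to 8) is in capitals, and the sequences are from RefSeq on GRCm38.p6. The 5p strand of *Mir125b-2* (chr16:77646279-77646300, plus strand) is identical to that of *Mir125b-1* (chr9:41581940-41581961), and the 5p strand of *Mir125a* (chr17:17830817-17830840) has the same seed, CCCUGAG. The 3p strand of *Mir125b-2* (chr16:77646318-77646339) has a seed of its own, CAAGUCA, against CGGGUUA in *Mir125b-1* and CAGGUGA in *Mir125a*.
miR-125b-5p: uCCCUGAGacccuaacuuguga
miR-125a-5p: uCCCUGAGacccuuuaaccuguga
miR-125b-2-3p: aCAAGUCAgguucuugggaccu
*Mir125b-2*, *Mir125b-1* and *Mir125a* were all listed at 0 FPKM in both libraries, so the table holds no check of the deletion.

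The 3′UTRs of the 10 genes were searched on the sense strand for the 7 bases that pair with these seeds, CTCAGGG for the 5p strand and TGACTTG for the 3p strand. The 5p letters were found in *Dicer1* and *Ago2*, which is 2 of the 10 genes, and in 15.6% of 12730 coding genes with a 3′UTR and a mean of at least 1 FPKM. The 3p letters were found in *Ago1*, *Ago2*, *Ago3* and *Tnrc6b*, which is 4 of the 10 genes, against 14.6% of the same genes. These genes have long 3′UTRs. Among genes with a 3′UTR of similar length, 29.3% of 1742 hold the 5p letters for *Dicer1*, and 45.3% of 95 for *Ago2*. For the 3p letters the shares are 34.5% of 1367 genes for *Ago1*, 53.7% of 95 for *Ago2*, 56.8% of 44 for *Ago3* and 52.9% of 68 for *Tnrc6b*. The windows below are from GENCODE M21 transcripts on GRCm38, all in the last exon, with the matching letters in capitals. A match is a description of the sequence and not evidence of binding.
Dicer1 5p match, chr12:104689510-104689516, minus strand: cttcgttcatccattCTCAGGGc
Ago2 5p match, chr15:73106594-73106600, minus strand: accagtctatgaactCTCAGGGc
Ago2 5p match, chr15:73100530-73100536, minus strand: gtgtaagccacagccCTCAGGGc
Ago1 3p match, chr4:126438178-126438184, minus strand: agggaactgtggaacTGACTTGt
Ago1 3p match, chr4:126436775-126436781, minus strand: aaagaccaagaaaaaTGACTTGg
Ago2 3p match, chr15:73100750-73100756, minus strand: catcttccattctttTGACTTGg
Ago2 3p match, chr15:73100625-73100631, minus strand: gttacttaaatccccTGACTTGg
Ago3 3p match, chr4:126341135-126341141, minus strand: gtcttgttataatccTGACTTGa
Tnrc6b 3p match, chr15:80931451-80931457, plus strand: ctctgctgtcctctgTGACTTGc
The *Dicer1* match lies 2077 bases after the stop codon in a 3′UTR of 3851 bases, and the *Ago2* 5p matches lie 308 and 6372 bases into a 3′UTR of 11064 bases. None of the 3 matches to the 5p letters is followed by an A, and of the 6 matches to the 3p letters that of *Ago3* is. The 3′ ends of these transcripts in the deposited table are those of GENCODE M21, apart from *Tnrc6b*, whose end differs by 1 base.

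The pathway was present at nearly the same level in both libraries. Of the 10 genes, 9 had a mean of at least 1 FPKM, and *Dgcr8* was the exception. None of these 9 differed by more than 1.2-fold in either direction, while 20.4% of 15706 genes did (1575 higher and 1631 lower in maternal KO). None was past 2-fold, against 2.73% of all genes (220 higher and 208 lower). In the members' own range of levels, 7.43 to 30.6 FPKM, 4.45% of 6070 genes were above and 4.32% below 1.2-fold, so a count of 0 of 9 is near the share of genes at this level. Log2 ratios (maternal KO over wild type, after adding 0.1 FPKM) ran between -0.055 in *Xpo5* and 0.18 in *Drosha*, with a median of 0.012 against 0.0043 for all genes.

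**Figure D1:**
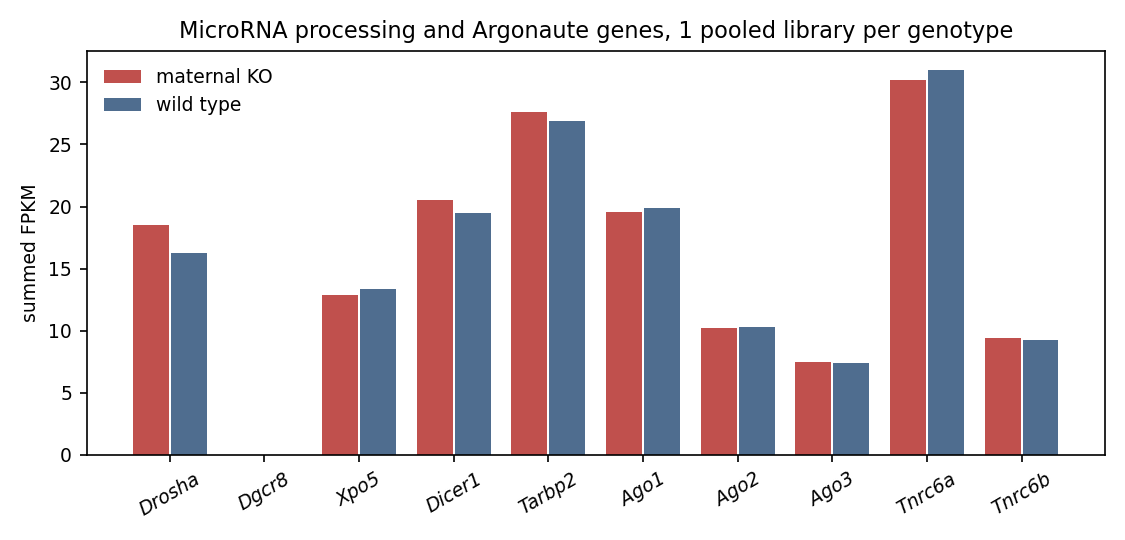
Summed FPKM (y axis, linear, starting at 0) of each gene in the maternal KO library (red, left) and the wild-type library (blue, right), 1 pooled library per genotype and so no error bars. The paired bars are of nearly equal height in 9 genes, *Drosha* shows the widest gap at 18.5 against 16.3 FPKM, and *Dgcr8* has no visible bar.

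The first step is nuclear cropping. *Drosha*, the RNase III enzyme that makes the cut (ENSMUSG00000022191, chr15:12824815-12935290, plus strand), had 18.5 FPKM in maternal KO brains, against 16.3 FPKM in wild-type brains (ratio 1.14). This was the widest ratio among the 9 genes, and 91.8% of 3335 coding genes within 1.5-fold of its level had a lower one. Its most abundant transcript, the coding ENSMUST00000090292, had 11.99 FPKM in maternal KO and 10.33 FPKM in wild type, while the other coding transcript, ENSMUST00000169061, stood at 2.97 FPKM in maternal KO and 3.54 FPKM in wild type. The coding transcripts thus differed in direction. The largest fold within the gene was in ENSMUST00000141010, a non-coding processed transcript of 588 bases, with 1.36 FPKM in maternal KO and 0.442 FPKM in wild type. Without it the sums were 17.1 FPKM in maternal KO and 15.8 FPKM in wild type (ratio 1.08). Under the other ways of summing and scaling tried, the log2 ratio of *Drosha* lay between 0.11 and 0.21.

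*Dgcr8*, which encodes the RNA-binding partner of DROSHA (ENSMUSG00000022718, chr16:18253948-18289249, minus strand), was listed at 0 FPKM in maternal KO brains and at 0.0225 FPKM in wild-type brains. All 7 of its transcripts stood at 0 in both libraries, apart from the retained-intron transcript ENSMUST00000128856 in wild type. No ratio is given. It was not alone: *Dgcr8* lies in a run of 10 neighbouring coding genes on chromosome 16 (chr16:17980565-18348103, *Vpreb2* to *Tango2*, 368 kb) that were all below 0.3 FPKM in both libraries. Of 51 transcripts in the run, 47 stood at 0 in both. The run includes *Ranbp1*, which encodes a partner of the transport GTPase RAN, listed at 0 in both libraries. *Trmt2a*, a tRNA methyltransferase gene that overlaps *Dgcr8* by 825 bases on the opposite strand, stood at 0 FPKM in maternal KO and 0.0250 FPKM in wild type. Genes on either side had values. *Slc25a1*, the mitochondrial citrate carrier gene, had 40.4 FPKM in maternal KO and 35.1 FPKM in wild type, and *Arvcf*, a catenin gene, had 2.01 FPKM in maternal KO and 3.81 FPKM in wild type. Over the whole table, 33.4% of 22025 coding genes were below 0.3 FPKM in both libraries. Whether the zeros are a failed estimate was not tested, and they do not show that *Dgcr8* RNA was missing from the brains.

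**Figure D2:**
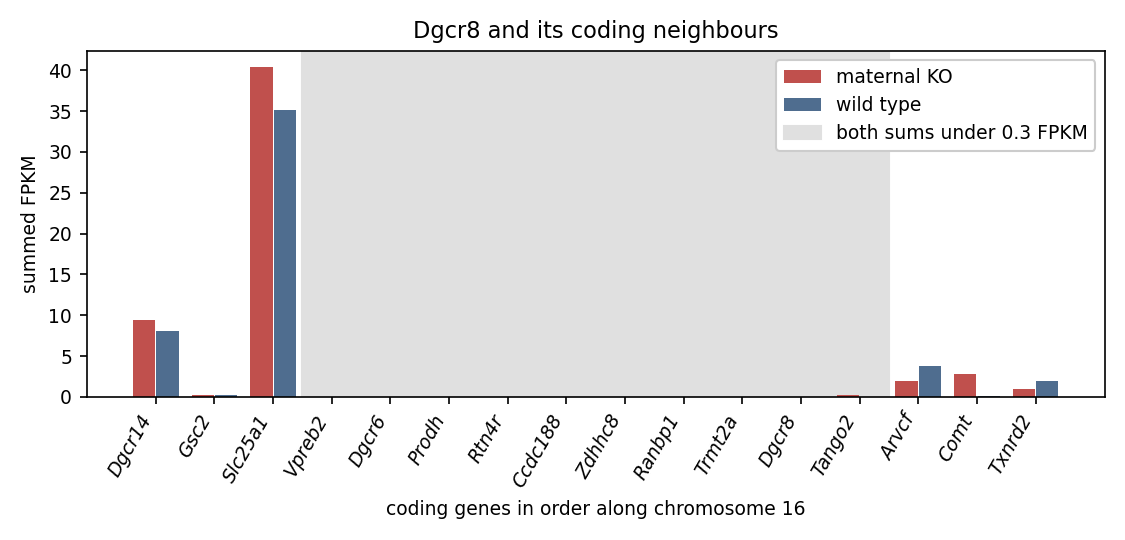
Summed FPKM (y axis, linear, starting at 0) of *Dgcr8* and the coding genes around it in their order along chromosome 16 (x axis), in the maternal KO library (red, left) and the wild-type library (blue, right). Inside the grey band lie 10 genes with under 0.3 FPKM in both libraries, whereas *Slc25a1* beside them reaches 40.4 and 35.1 FPKM.

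Export and dicing followed the same pattern of small differences. *Xpo5* (ENSMUSG00000067150, chr17:46202855-46242299, plus strand), the export receptor for the cropped hairpin, has 1 listed transcript, with 12.9 FPKM in maternal KO and 13.4 FPKM in wild type (ratio 0.962).

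*Dicer1* (ENSMUSG00000041415, chr12:104687742-104751952, minus strand), the cytoplasmic RNase III enzyme that cuts the hairpin, had 20.6 FPKM in maternal KO and 19.5 FPKM in wild type (ratio 1.06). The full-length coding transcript ENSMUST00000041987, which carries the 5p match shown above, went the other way with 11.3 FPKM in maternal KO and 12.1 FPKM in wild type. The gene-level excess came with ENSMUST00000222528, a processed transcript of 4724 bases chosen after its values were seen, at 1.38 FPKM in maternal KO and 0.0961 FPKM in wild type. Leaving it out gave 19.2 FPKM in maternal KO and 19.4 FPKM in wild type (ratio 0.989). The sign of the *Dicer1* difference therefore rests on that transcript. Coding transcripts made up 66.8% of the *Dicer1* sum in maternal KO and 72.8% in wild type.

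*Tarbp2* (ENSMUSG00000023051, chr15:102518192-102523676, plus strand), the double-stranded RNA-binding partner of DICER1, had 27.6 FPKM in maternal KO and 26.9 FPKM in wild type (ratio 1.02). Its signal was spread over many transcripts, and this small difference depended on single ones. The coding ENSMUST00000142194 was listed at 0.793 FPKM in maternal KO and at 0 in wild type. Without it the sums were 26.8 FPKM in maternal KO and 26.9 FPKM in wild type. The coding ENSMUST00000023813 was higher in maternal KO by 1.13 FPKM, more than the gene's difference of 0.672 FPKM. Without ENSMUST00000154948 the sums were 27.6 FPKM in maternal KO and 25.8 FPKM in wild type (ratio 1.07). The most abundant in wild type, ENSMUST00000131184, is annotated as a target of nonsense-mediated decay and had 5.60 FPKM in maternal KO and 5.84 FPKM in wild type. In maternal KO the coding ENSMUST00000023813 was the most abundant, with 6.34 FPKM there and 5.21 FPKM in wild type. ENSMUST00000154948, also annotated to nonsense-mediated decay, was listed at 0 in maternal KO and at 1.13 FPKM in wild type. Coding transcripts of *Tarbp2* summed to 9.95 FPKM in maternal KO and 8.22 FPKM in wild type, which is past 1.2-fold, as are 13.3% of 12461 genes on coding sums. Without ENSMUST00000142194, a transcript chosen after its values were seen, the coding sums were 9.15 FPKM in maternal KO and 8.22 FPKM in wild type (ratio 1.11), within 1.2-fold. Transcripts annotated to nonsense-mediated decay summed to 5.92 FPKM in maternal KO and 7.23 FPKM in wild type. Retained-intron transcripts held 42.4% of the sum in maternal KO and 42.6% in wild type.

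The Argonaute genes had nearly equal values in the libraries. *Ago2* (ENSMUSG00000036698, chr15:73095844-73184840, minus strand), the Argonaute that can cut its target RNA, had 10.2 FPKM in maternal KO and 10.3 FPKM in wild type from 1 transcript (ratio 0.995). Its 3′ region overlaps *Chrac1* on the opposite strand by 1711 bases. *Ago1* (ENSMUSG00000041530, chr4:126435012-126468583, minus strand) had 19.5 FPKM in maternal KO and 19.9 FPKM in wild type (ratio 0.983). Most of it was the coding ENSMUST00000097888, with 16.1 FPKM in maternal KO and 16.2 FPKM in wild type, whereas the minor coding ENSMUST00000176315 had 0.241 FPKM in maternal KO and 0.639 FPKM in wild type. *Ago3* (ENSMUSG00000028842, chr4:126331704-126429556, minus strand) had 7.46 FPKM in maternal KO and 7.40 FPKM in wild type (ratio 1.01). Its main coding transcript ENSMUST00000069097 had 3.998 FPKM in maternal KO and 4.336 FPKM in wild type, and processed transcripts held 38.1% of the sum in maternal KO and 36.1% in wild type.

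*Ago4*, the fourth Argonaute gene and the neighbour of *Ago1* and *Ago3* on chromosome 4, had 5.34 FPKM in maternal KO and 5.84 FPKM in wild type (ratio 0.914). The 4 Argonaute genes together had 42.6 FPKM in maternal KO and 43.4 FPKM in wild type. Their makeup was alike. *Ago1* held 45.9% of the family sum in maternal KO and 45.8% in wild type, *Ago2* held 24.1% in maternal KO and 23.7% in wild type, and *Ago3* held 17.5% in maternal KO and 17.1% in wild type.

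*Tnrc6a* (ENSMUSG00000052707, chr7:123123885-123195296, plus strand), a GW182 scaffold that links Argonaute to deadenylases, had the highest sum per length of the 10 genes, with 30.2 FPKM in maternal KO and 31.0 FPKM in wild type (ratio 0.975). Much of its signal was not in coding transcripts: retained-intron transcripts held 46.1% of the sum in maternal KO and 51.5% in wild type, and coding transcripts 44.6% in maternal KO and 39.7% in wild type. Coding transcripts alone turned the direction, with 13.5 FPKM in maternal KO and 12.3 FPKM in wild type. The main coding transcript ENSMUST00000094053 had 9.47 FPKM in maternal KO and 9.97 FPKM in wild type. The coding ENSMUST00000205760 (5223 bases) had 2.75 FPKM in maternal KO and 1.91 FPKM in wild type. The short coding ENSMUST00000206014 (463 bases) had 1.26 FPKM in maternal KO and 0.424 FPKM in wild type, and the retained-intron ENSMUST00000205732 had 0.438 FPKM in maternal KO and 1.38 FPKM in wild type. *Gm45846*, a lincRNA on the same strand that overlaps *Tnrc6a* over 45794 bases, had 1.12 FPKM in maternal KO and 0.282 FPKM in wild type, and reads of the shared stretch could be split between these genes in ways not checked here. *Tnrc6b* (ENSMUSG00000047888, chr15:80711319-80941086, plus strand), a paralog with the same role, had 9.39 FPKM in maternal KO and 9.24 FPKM in wild type from 1 transcript (ratio 1.02). The third paralog, *Tnrc6c*, had 25.6 FPKM in maternal KO and 24.8 FPKM in wild type.

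**Figure D3:**
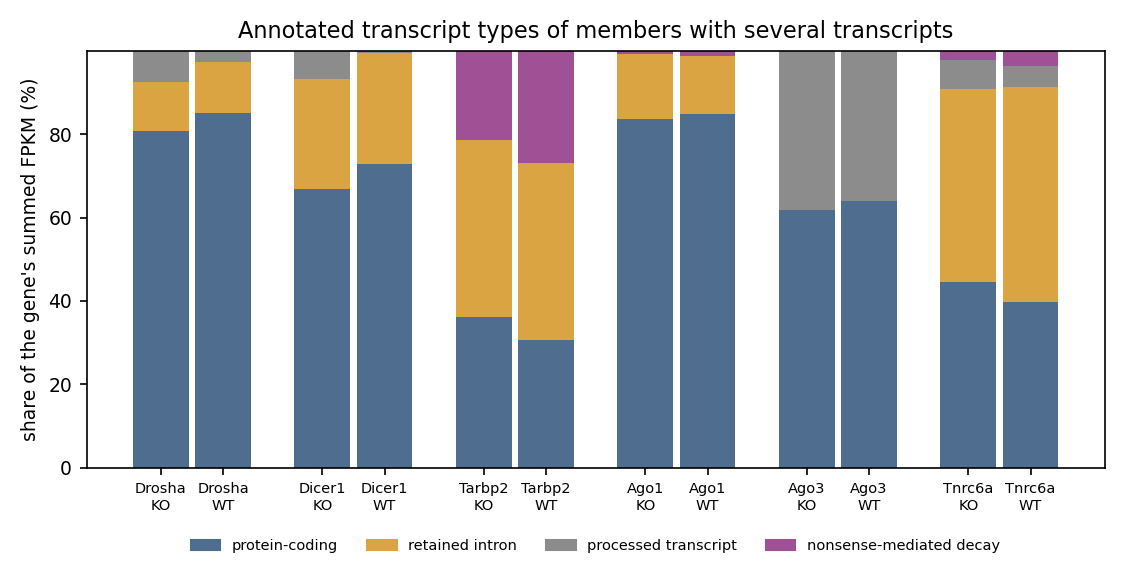
Share of each gene's summed FPKM (y axis, percent) by annotated transcript type, for 6 genes with several transcripts, in the maternal KO library (KO, left) and the wild-type library (WT, right). Coding transcripts of *Tarbp2* hold 36.1% and 30.5%, those of *Dicer1* 66.8% and 72.8%, and those of *Tnrc6a* 44.6% and 39.7%.

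The order of the gene sums per length, all transcript types included, was *Tnrc6a*, *Tarbp2*, *Dicer1*, *Ago1*, *Drosha*, *Xpo5*, *Ago2*, *Tnrc6b*, *Ago3* and *Dgcr8* in maternal KO brains. In wild-type brains *Ago1* stood before *Dicer1*, and the order was otherwise equal. On coding transcripts alone the order was another one, with *Ago1* first at 16.3 FPKM in maternal KO and 16.9 FPKM in wild type, *Tnrc6a* in place 4 in maternal KO and 5 in wild type, and *Tarbp2* in place 7 in maternal KO and 8 in wild type. Without replicates no pair of neighbours in this order can be said to differ.

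Single transcripts varied more than the gene sums. Of the 60 transcripts, 15 were listed at 0 in both libraries, 4 at 0 in one of them and 41 above 0 in both. Of the 37 transcripts above 0.3 FPKM in wild type, 2 had a maternal KO to wild-type ratio above 2, which is 5.41% against 4.16% of 50321 transcripts of all genes. They are ENSMUST00000141010 of *Drosha*, with a ratio of 3.09, and ENSMUST00000206014 of *Tnrc6a*, with a ratio of 2.98. A ratio below 0.5 was found for 3 transcripts, 8.11% against 13.6% of all transcripts, namely ENSMUST00000154948 of *Tarbp2*, ENSMUST00000176315 of *Ago1* and ENSMUST00000205732 of *Tnrc6a*. All 5 were minor transcripts with at most 1.38 FPKM in wild type. The 20 transcripts above 2 FPKM in wild type had ratios between 0.837 and 1.22. The balance turned when the 0.3 FPKM were required in maternal KO instead: 5 transcripts were above 2 and 1 below 0.5. It also turned over all genes: of 50108 transcripts with this minimum, 13.8% were above 2 and 3.70% below 0.5. How many member transcripts passed this minimum was not counted, so the turn is not a result about the pathway. With the minimum in wild type, the counts mark nothing particular to the pathway.

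**Figure D4:**
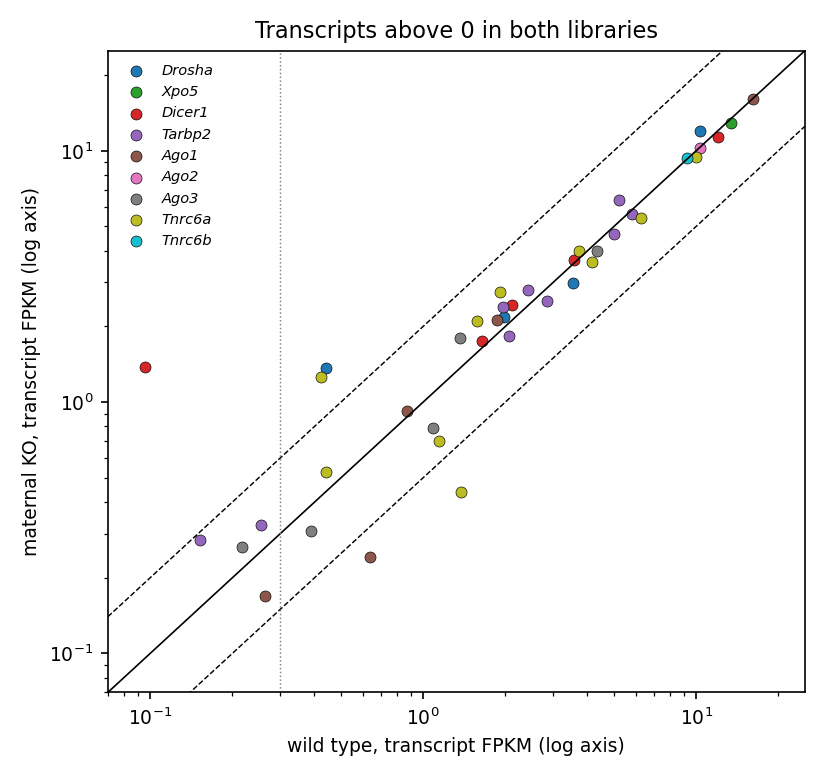
FPKM of the 41 member transcripts above 0 in both libraries, in maternal KO (y axis) against wild type (x axis), both log axes, coloured by gene. The solid line is equality, the dashed lines are 2-fold and the dotted line is the 0.3 FPKM minimum; the points above 2 FPKM in wild type lie near equality, and those outside the 2-fold lines have at most 1.38 FPKM in wild type.

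The proteins that work with these enzymes were read from lists chosen with earlier results of these data known. Of 18 nuclear processing partners, such as helicases and RNA-binding proteins of the microprocessor, all had at least 1 FPKM and none was past 1.2-fold in either direction, against 5.82% of 5753 genes in the same range of levels, with a median log2 ratio of 0.055. *Ncbp1*, a cap-binding subunit gene, had 18.8 FPKM in maternal KO and 17.4 FPKM in wild type. At the other end, *Adarb1*, an RNA editing enzyme gene, had 16.8 FPKM in maternal KO and 18.5 FPKM in wild type, and *Hnrnpa2b1*, which encodes an RNA-binding protein, had 361 FPKM in maternal KO and 384 FPKM in wild type.

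Of 20 export, Dicer and loading partners 19 had at least 1 FPKM, with 2 above and 1 below 1.2-fold and a median log2 ratio of 0.066. Of 12444 genes in their range of levels, 13.7% were past 1.2-fold. *Ran*, the GTPase that exportin 5 needs, had 107 FPKM in maternal KO and 78.4 FPKM in wild type. That excess was in ENSMUST00000134632, a fragment of 229 bases with 30.8 FPKM in maternal KO and 0.732 FPKM in wild type, and without transcripts under 300 bases *Ran* had 75.9 FPKM in maternal KO and 77.7 FPKM in wild type. *Clp1*, an RNA kinase gene, had 4.48 FPKM in maternal KO and 3.53 FPKM in wild type. Its processed transcript ENSMUST00000138231 had 0.438 FPKM in maternal KO and 0 in wild type. Its coding ENSMUST00000028475 had 3.36 FPKM in maternal KO and 2.70 FPKM in wild type, and the coding ENSMUST00000165219 had 0.685 and 0.828 FPKM. *Mov10*, a helicase gene, was the one below, with 2.25 FPKM in maternal KO and 2.95 FPKM in wild type, and *Ipo8*, an importin gene, had 11.8 FPKM in maternal KO and 12.3 FPKM in wild type.

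The 38 effector partners include deadenylase, decapping and P-body genes downstream of GW182, together with *Ago4* and *Tnrc6c*. The list also holds other genes, such as *Fmr1*, *Pabpc1*, *Limd1*, *Trim71* and *Zswim8*. Of the 38 genes, 37 had at least 1 FPKM and none was past 1.2-fold, with a median log2 ratio of -0.0051. Between the means of their lowest and highest gene, 2.07 and 59.9 FPKM, 15.7% of 12217 genes were past 1.2-fold. In the narrower range of the members, 7.43 to 30.6 FPKM, 4.45% of 6070 genes were above and 4.32% below it. *Cnot6l*, a deadenylase gene, had the highest log2 ratio, with 18.3 FPKM in maternal KO and 15.9 FPKM in wild type. *Edc4*, a decapping scaffold gene, came next with 22.1 FPKM in maternal KO and 19.9 FPKM in wild type. *Dcp2*, the decapping enzyme gene, had the lowest, with 17.2 FPKM in maternal KO and 20.3 FPKM in wild type. Most of that gap was in the coding ENSMUST00000202306 of 398 bases, with 7.32 FPKM in maternal KO and 9.76 FPKM in wild type. The coding ENSMUST00000025350 of 8616 bases had 9.90 FPKM in maternal KO and 10.6 FPKM in wild type. *Patl1*, a decapping activator gene, was next lowest, with 3.72 FPKM in maternal KO and 4.27 FPKM in wild type. Among the 8 primary microRNA host transcripts with at least 1 FPKM, 1 was above 1.2-fold, and in their range of levels 13.6% of 11342 genes were past it in either direction. It was *Mir99ahg*, the host of *Mir125b-2*, with 35.7 FPKM in maternal KO and 28.1 FPKM in wild type. *Mir17hg* had 3.03 FPKM in maternal KO and 2.54 FPKM in wild type, *Mir124a-1hg* had 35.5 FPKM in maternal KO and 38.6 FPKM in wild type, and *Mir124-2hg* had 63.3 FPKM in maternal KO and 65.3 FPKM in wild type.

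**Figure D5:**
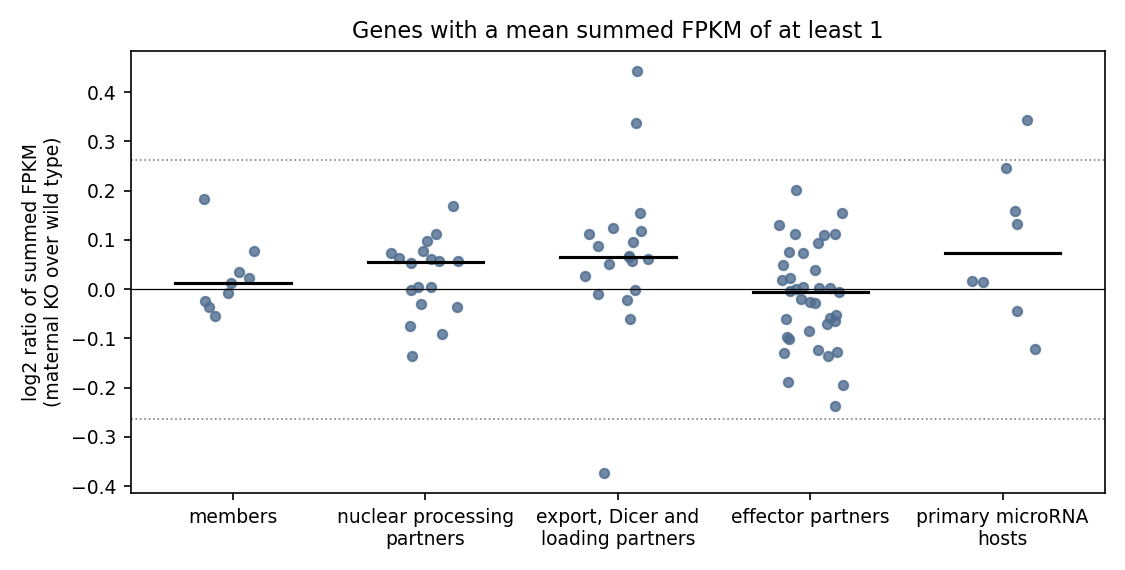
Log2 ratio of summed FPKM, maternal KO over wild type (y axis), for the 9 genes with at least 1 FPKM (left) and 4 lists of pathway partners; each point is a gene, the black bar is the median and the dotted lines mark 1.2-fold. Nearly all points lie inside the dotted lines, and those outside are *Ran*, *Clp1*, *Mov10* and *Mir99ahg*.

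Cell type markers also differed little. Neuronal markers had a median log2 ratio of 0.013 over 5 genes, while progenitor markers (6 genes, all below 0) had a median of -0.13 and endothelial markers (3 genes) one of -0.16. Their part in the differences above was not tested.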

How the data were processed

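RNA of 6 maternal KO and of 6 wild-type brains was pooled into 1 library each. Per the labels and the study's methods, ribosomal RNA was removed, libraries kept the strand, reads were trimmed with Trimmomatic 0.36, aligned to GRCm38.p5 with HISAT2 2.1.0 and quantified with Cuffdiff. For Cuffdiff, the version, the library normalization and the use of strand were not given in the sources used here. FPKM values were deposited per Ensembl transcript by the authors, with 1e-05 in place of 0, which was read as 0. The lowest values showed no steps of whole reads, so depth is unknown. Deposited ratios, log2 ratios, p-values, q-values and a second table with a subset of transcripts hold the authors' own comparison and were not used.

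Calculations used pandas 2.3.3 and numpy 2.4.6 under python 3.11.15, and plots matplotlib 3.10.9. Gene values were sums over transcripts. Log2 ratios used a pseudocount of 0.1 FPKM, which understates changes of low genes. GENCODE M21 gave the type, length and 3′UTR of transcripts and held 58 of the 60 transcripts. The longest annotated 3′UTR of each gene was searched, and 3′UTRs were of similar length where the shorter was over 0.75 of the longer. The calculation was tested on simulated data. Genes named were the members, *Ago4*, *Tnrc6c*, the 2 highest and 2 lowest of each list at a mean of at least 1 FPKM, each member's most abundant wild-type transcript and those past 2-fold, and the deleted gene with its host. A gene that this rule names is not reported here. Other names were chosen after their values were seen. Members and lists were chosen with earlier results of these data known.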

Additional observations from a re-analysis of the deposited data

How the results depend on the processing

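A median was taken as kept within 0.05 (log2), a single-gene ratio within 0.1 and a count within 1.5-fold. Of 72 single-gene ratios under the planned settings, 67 were kept. The limit of 0.1 is wider than the log2 ratio of each of the 9 genes but *Drosha*, so a kept ratio could change sign. That of *Ago3* was 0.012 and became -0.033 with coding transcripts only, and it counted as kept. Leaving out transcripts under 300 bases could change no ratio, since the 9 genes have no annotated transcript that short. *Xpo5*, *Ago2* and *Tnrc6b* have 1 listed transcript each, so the settings that choose among transcripts could not change their ratios. The count of 67 therefore says little about how stable the small ratios are. Both scalings moved log2 ratios by -0.010 and -0.0071. With coding transcripts only, 1 gene (*Tarbp2*) was past 1.2-fold in place of 0, and none once ENSMUST00000142194 was also left out, an alternative chosen after seeing the data. With each gene's most abundant wild-type transcript only, the median log2 ratio was -0.055. Of the 9 genes, 5 were higher in maternal KO. This count was 4 with coding transcripts only or without transcripts at 0 in either library, and 2 with the most abundant wild-type transcript only. Transcripts above 2-fold, 2 in the report, numbered 5 with the 0.3 FPKM minimum set in maternal KO, 4 with it set on the mean, 0 with a wild-type minimum of 1 FPKM and 5 with none. Those below 0.5, 3 in the report, numbered 1 with the minimum set in maternal KO. Partners of export, Dicer and loading past 1.2-fold, 3 in the report, numbered 1 at a mean of at least 5 FPKM, and primary hosts, 1 in the report, numbered 2 with no minimum. Apart from 0.3 FPKM in maternal KO, no share over all genes was worked out for these changed minima. The counts show only how the calls depend on the minimum. No paired analysis was possible because a single pooled library stands for each genotype, and leaving out a replicate was not possible for the same reason. No replicate error is known, transcript FPKM are model estimates that share reads between isoforms, and the values of *Dgcr8* near 0 allow no comparison.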

Other observations

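The PIWI branch of the Argonaute family, which works with small RNAs of the germ line, was near 0: its 3 listed genes had between 0.0827 and 0.106 FPKM in maternal KO brains and between 0.0526 and 0.250 FPKM in wild-type brains. The host transcript *Mir99ahg* was listed with 16 transcripts, which did not move alike. Its ENSMUST00000182398 had 6.96 FPKM in maternal KO and 3.83 FPKM in wild type, and ENSMUST00000170849 had 2.62 FPKM in maternal KO and 0.689 FPKM in wild type, while ENSMUST00000068704 had 4.29 FPKM in maternal KO and 4.79 FPKM in wild type. These transcripts were chosen after their values were seen.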
